A study of Mus musculus with 8 samples.

Results

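The comparison described here is that of livers given A20 with livers given a control vector, in the lobes removed at resection. It holds 4 of the 8 arrays of the series, 2 labelled pre-A20 and 2 labelled pre-βgal, and was read across 17790 genes. The arrays were picked by their titles. The comparison and the gene lists were chosen with earlier results of these data known. Each array carried liver RNA pooled from 3 BALB/c mice, 8 weeks old. The pre-A20 mice had received the recombinant adenovirus rAd.A20, which carries human A20, and the pre-βgal mice rAd.βgal, which carries β-galactosidase, by penile vein 5 days before the resection of 78% of the liver. All mice of both groups thus carried an adenovirus, and no liver without vector is among the arrays. By the study's methods only a part of the hepatocytes express the vector, so each pool mixed cells with and without the transgene. The other 4 arrays, post-A20 and post-βgal, hold the remnant liver 24 h after resection. They entered the estimate of the spread and the comparison of both times.

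A20, the product of Tnfaip3, edits ubiquitin chains on signalling proteins below the receptors for tumor necrosis factor, interleukin 1 and lipopolysaccharide, and thereby limits the activation of NF-κB. NF-κB switches on A20 itself, its own inhibitors, chemokines and adhesion molecules, and in hepatocytes it acts with STAT3 to induce acute phase proteins, which the liver secretes into blood during inflammation. Adenoviral vectors given to mice are known to evoke interferon and T cell responses in the liver.

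The tissue carried the markers of its label. Of the 8 hepatocyte markers measured, 0 were called different by limma (1 had an unadjusted p under 0.05), with a median difference of 0.12 on the log2 scale. In 5 of them both pre-A20 arrays lay above both pre-βgal arrays, against 22.1% of all genes. The summed signal of the 8 was 89792 and 93137 in pre-βgal and 103444 and 97818 in pre-A20. The probe sets of Tnfaip3 read the mouse transcript, and the human transgene was not measured. The arrays differed in RNA integrity, and pre-βgal replicate 1 stood apart. For β-actin the signal at the 3′ end over that at the 5′ end, which rises as RNA degrades, was 7.0 in that array, 1.27 in pre-βgal replicate 2, and 1.43 and 1.62 in pre-A20. After resection post-βgal replicate 1 was also high, at 3.64, and the other 3 arrays lay between 1.31 and 1.43. Across all probe sets kept, the pre-βgal arrays correlated with each other at 0.962 and the pre-A20 arrays at 0.986. With the mean of both pre-A20 arrays, pre-βgal replicate 1 correlated at 0.945 and replicate 2 at 0.974. Replicate 2 was thus nearer to that mean than to replicate 1, although a mean of 2 arrays is steadier than 1 array. Nothing in the sources used here says whether the mice of both groups were treated on the same days or sampled at the same time of day. The small number of arrays, 2 in each group, limits how precise any value is, and p-values measure the spread between pools.

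With A20, the livers had less mRNA of 6 of 32 acute phase genes (among them Saa3 and Lcn2), 4 of 22 chemokines (among them Cxcl1), 2 of 17 neutrophil markers (S100a8 and S100a9), 4 of 24 early response genes (among them Btg2) and the cell cycle inhibitor Cdkn1a before any resection took place. They had more mRNA of the clock output gene Dbp, of 4 of 23 genes of the growth hormone list (among them Mup10, while 2 were lower) and of 5 of 38 enzymes that conjugate drugs and hormones. Of the genes named in these sentences, Saa3, S100a9, Btg2, Dbp and Mup10 were also called when the array of degraded RNA was left out. In numbers, 444 of the 17790 genes differed by limma's test at an adjusted p under 0.05, which is 2.5% of the genes tested. Of these, 127 genes, 0.714%, were higher and 317, 1.78%, were lower with A20. The difference was at least 2-fold for 182 of them, 68 higher and 114 lower, and at least 4-fold for 24. All differences are of log2(signal + 16), pre-A20 minus pre-βgal. The median over all genes tested was −0.03. An unadjusted p under 0.05 in limma's test was reached by 3887 of the 17790 genes. By the criterion that the lower end of the 90% interval of the fold change be at least 1.5 in any probe set of a gene, 535 genes differed (3.01%), 200 of them higher (1.12%) and 335 lower (1.88%), and 254 of the genes called by the adjusted p were among them.

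The counts depended on single arrays. All 444 called genes had both pre-A20 arrays on one side of both pre-βgal arrays, against 51.3% of all genes tested (22.1% higher and 29.3% lower). Against pre-βgal replicate 2 alone, the array of intact RNA, 391 of the 444 differed by at least 1.5-fold, and against replicate 1 alone 389 did. The median size of their difference was 0.94 against replicate 1 and 0.90 against replicate 2, where all genes had 0.22 and 0.18. The 444 genes were called for their difference in these same arrays, which by itself favours such agreement. The number called was 14 (0.0787%) without pre-βgal replicate 1 and 1686 without replicate 2. Of the pre-A20 arrays, leaving out replicate 1 left 36 calls and leaving out replicate 2 left 5. The arrays after resection mattered through the spread, with 106 or 104 calls when 1 of the post-βgal arrays was dropped and 165 or 171 when 1 of the post-A20 arrays was. A fit of the 4 arrays alone, with fewer arrays to estimate the spread, called 1 gene, Dbp. The interval criterion gave 414 genes without pre-βgal replicate 1 and 1540 without replicate 2, while dropping pre-A20 replicate 1 gave 625 and replicate 2 gave 292.

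**Figure D1:**
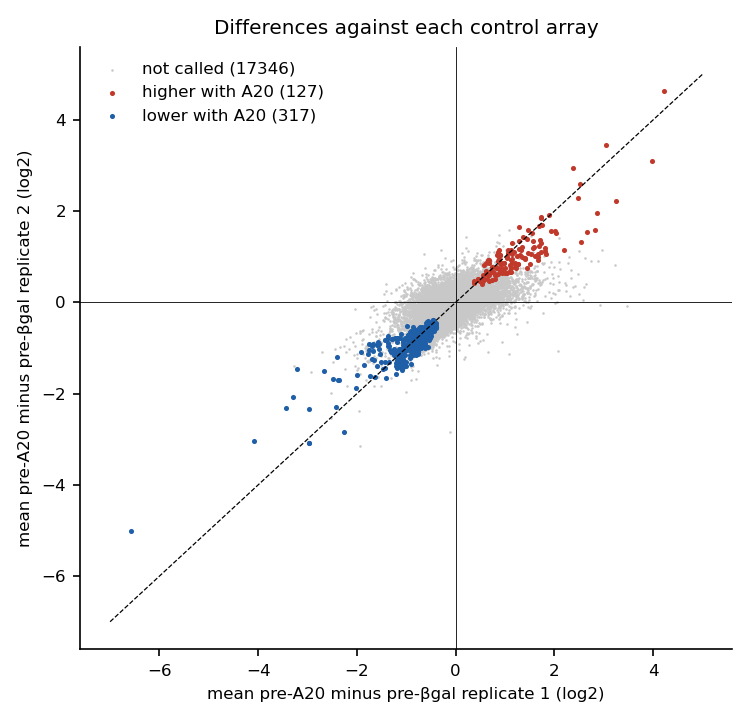
Difference of the mean of both pre-A20 arrays from pre-βgal replicate 1 (horizontal axis) and from pre-βgal replicate 2 (vertical axis), log2 of signal + 16, each point 1 gene, with the line of equal differences dashed. All 127 genes called higher lie above 0 and all 317 called lower lie below 0 on both axes, and the calls were made from these same arrays.

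The 14 genes called the same way without pre-βgal replicate 1 were Dbp, Mup10, Pimreg and Ccdc85a, which were higher, and Prm1, Saa3, Chka, S100a9, Egr1, Btg2, Mfsd4a, Rfx2, Phlda2 and Fcor, which were lower. Pimreg, a mitotic protein that also goes by the name CATS, read 325 and 309 in pre-βgal and 1814 and 2074 in pre-A20, a difference of 2.55 (SE 0.24, limma adjusted p = 0.0182). Chka, choline kinase α, the first enzyme of phosphatidylcholine synthesis, read 2059 and 885 in pre-βgal and 195 and 198 in pre-A20. It was 6.43-fold lower with A20 (−2.69, SE 0.36, adjusted p = 0.0232). Its control arrays differed from each other by more than 2-fold, and the lower of them was still more than 4-fold above both A20 arrays. The other 2 probe sets of Chka had −2.55 and −0.85. Ccdc85a, Mfsd4a, Rfx2, Phlda2 and Fcor were of lower signal, between 90.6 and 450, and differed by 1.76, −1.21, −1.16, −0.98 and −1.07. Rfx2 had 4 probe sets kept, and only 2 of its others differed in the same direction.

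**Figure D2:**
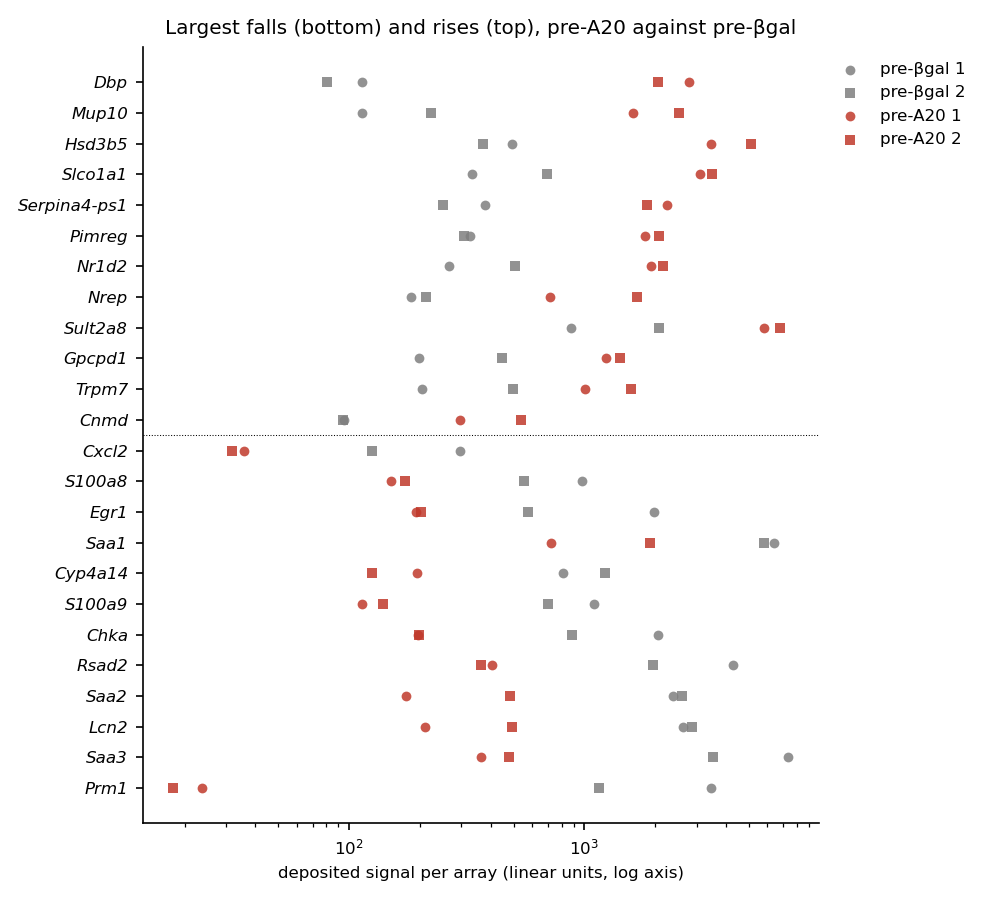
Deposited signal (horizontal log axis) of the 12 largest rises, above the dotted line, and the 12 largest falls, below it, among genes called, for each of the 2 pre-βgal (grey) and 2 pre-A20 (red) arrays. Both red points lie on one side of both grey points in every row, which the choice of these genes required. The rows run from Dbp at 80.9 to 113 against 2056 to 2788 down to Prm1 at 1157 to 3462 against 17.9 to 23.6.

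Of the acute phase proteins a few were far lower with A20, and the list as a whole was shifted less. Saa3, a serum amyloid A made by hepatocytes and macrophages, read 7330 and 3534 in pre-βgal and 365 and 477 in pre-A20. It was 11.8-fold lower with A20 (−3.56, SE 0.37, limma adjusted p = 0.0189). Lcn2, which withholds iron from bacteria, read 2622 and 2871 against 209 and 493, a difference of −3.03 (SE 0.34, adjusted p = 0.0189). The pre-A20 arrays differed by more than 2-fold from each other in Lcn2, and both lay far below the controls. Saa2 read 2393 and 2606 against 174 and 485 (−3.03, adjusted p = 0.0216), and Saa1 6378 and 5800 against 719 and 1903 (−2.36, adjusted p = 0.0345). Saa1 and Saa2 are near-identical in sequence, and how their probes share transcripts was not tested. Lbp, which hands lipopolysaccharide to its receptor, fell from 3120 and 3375 to 1554 and 1318 (−1.17, adjusted p = 0.0246), and the orosomucoid Orm3 from 158 and 164 to 79.6 and 97.4 (−0.77, adjusted p = 0.0456). In all, 6 of the 32 acute phase genes tested were called lower and 0 higher, with a list median of −0.26. A negative difference was found in 22 and a positive one in 10. Both pre-A20 arrays lay below both controls in 19 and above them in 6, against 29.3% and 22.1% of all genes. When pre-βgal replicate 1 was left out, the difference in Saa3 was −3.03. Hepcidin (Hamp, 0.28, adjusted p = 0.243), the fibrinogen chain Fgg (0.22, adjusted p = 0.311) and Serpina3n (0.08, adjusted p = 0.834), which are among the 10 of the list with a positive difference, were not called.

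Genes that sense lipopolysaccharide had 1 of 12 members called, Lbp, and a median of −0.36. The receptor Cd14 read 766 and 344 in pre-βgal and 151 and 169 in pre-A20, −1.59 with an adjusted p of 0.0502, just outside the threshold. Tlr4, the signalling receptor, had −0.65 (adjusted p = 0.0603) and Tlr2, the receptor of bacterial lipoproteins, −2.02 (adjusted p = 0.138).

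Of 27 genes that NF-κB induces or that feed back on it, 25 had a negative difference, with a list median of −0.37. Both pre-A20 arrays lay below both pre-βgal arrays in 20, against 29.3% of all genes. By limma 1 was called, where 2.5% of all genes were. The gene called was Tnfaip3, mouse A20 itself. Its signal was 927 and 574 in pre-βgal and 170 and 162 in pre-A20, 4.10-fold lower (−2.03, SE 0.39, limma adjusted p = 0.0468). The other probe set of Tnfaip3 had −0.16, so the fall rests on 1 probe set. Icam1, the adhesion molecule that binds leukocytes, read 1544 and 582 against 180 and 201, −2.23 with an adjusted p of 0.0635. Its control arrays were far apart. Ier3, an early NF-κB target, had −1.74 (adjusted p = 0.0623), Relb, a subunit of NF-κB, −1.66 (adjusted p = 0.11) and Bcl3, a nuclear partner of NF-κB, −1.28 (adjusted p = 0.0621). The inhibitor Nfkbia had −0.69 (adjusted p = 0.189) and Sod2, the mitochondrial superoxide dismutase, 0.29 (adjusted p = 0.477). The call was lost without pre-βgal replicate 1 (−1.70, adjusted p = 0.131).

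Of 22 inflammatory chemokines, which draw leukocytes into tissue, 4 were called lower and 0 higher, with a list median of −0.30. Cxcl1 and Cxcl2 act on neutrophils. Cxcl1 read 5059 and 3123 in pre-βgal and 843 and 1082 in pre-A20, and was 4.11-fold lower (−2.04, SE 0.34, limma adjusted p = 0.0365). Its other 2 probe sets had −1.65 and −1.92. Cxcl2 read 297 and 125 against 35.7 and 31.7 (−2.08, adjusted p = 0.0481), and its pre-A20 signals lay below 40, the mean signal asked of at least 1 group. Ccl5, which draws T cells, read 799 and 762 against 362 and 331 (−1.14, adjusted p = 0.0191). Cxcl13, which draws B cells, read 524 and 652 against 301 and 332 (−0.86, adjusted p = 0.0418), but its other probe set had 0.06. All 4 calls were lost without pre-βgal replicate 1, where the adjusted p of Cxcl1, Cxcl2, Ccl5 and Cxcl13 was 0.0917, 0.112, 0.0544 and 0.0581.

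The start regions of 2 of these genes are shown because they hold the letters of the NF-κB consensus, searched on both strands in windows of the RefSeq annotation (GRCm38.p6) that run from 250 bases before each gene's start to 50 bases after it. Such a match was found in the windows of 11 of 23 genes of the NF-κB list that have a window, 47.8%, and of 4 of 14 chemokines, 28.6%, against 5.14% of all 27025 genes. Of the acute phase genes 1 of 27 had it (3.7%). In the window of Cxcl2 (chr5:90903649-90903948, + strand) overlapping matches on both strands start 97 and 96 bases before the gene's start. In that of Tnfaip3 (chr10:19015361-19015660, − strand) matches start 125 and 12 bases before it, and a second window of Tnfaip3 (chr10:19011914-19012213) holds none. Capitals mark the matches, and each sequence is printed from 5′ to 3′ on the strand of the gene.
Cxcl2: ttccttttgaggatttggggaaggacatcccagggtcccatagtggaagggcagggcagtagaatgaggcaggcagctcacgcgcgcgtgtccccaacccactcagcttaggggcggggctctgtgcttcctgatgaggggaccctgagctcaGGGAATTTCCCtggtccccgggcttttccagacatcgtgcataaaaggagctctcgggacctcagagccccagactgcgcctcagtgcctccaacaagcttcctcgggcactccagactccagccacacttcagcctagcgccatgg
Tnfaip3: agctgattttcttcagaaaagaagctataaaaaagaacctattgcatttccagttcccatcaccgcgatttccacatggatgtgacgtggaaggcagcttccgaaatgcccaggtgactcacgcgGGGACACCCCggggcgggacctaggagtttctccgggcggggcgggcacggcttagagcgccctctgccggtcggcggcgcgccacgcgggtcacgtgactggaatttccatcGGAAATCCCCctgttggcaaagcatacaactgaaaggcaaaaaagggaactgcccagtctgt
A match is a description of the letters, not of binding. Among the 24 genes of the largest rises and falls and of the calls without pre-βgal replicate 1 that have a window, the consensus was found in 0 of 9 that were higher and in 1 of 15 that were lower with A20, Cxcl2.

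The interferon genes had the largest shift of the lists as groups, with few or no calls. Targets of interferon γ, the T cell cytokine that induces chemokines, guanylate binding proteins and the immunoproteasome, had a median of −1.24 over 25 genes. Both pre-A20 arrays lay below both pre-βgal arrays in 22 of them, against 29.3% of all genes. By limma 0 of the 25 were called, while 17 had an unadjusted p under 0.05. Over all genes tested, 3887 of 17790 had such a p. Cxcl9 read 3143 and 3162 in pre-βgal and 490 and 587 in pre-A20, −2.52 (SE 0.61, limma adjusted p = 0.075). Gbp2, a guanylate binding protein, read 962 and 1299 against 235 and 239 (−2.17, adjusted p = 0.129). The post-A20 arrays, which enter the estimate of the spread, were far apart in these genes. Cxcl9 read 3596 and 737 in them, and over the list the median size of the difference between replicates was 1.54 in post-A20, 0.13 in pre-A20, 0.33 in pre-βgal and 0.36 in post-βgal. In a fit without both post-A20 arrays, added after the values were seen, 118 of all 17790 genes were called lower and 39 higher. Leaving out arrays so far apart in these genes by itself lowers their spread and favours calls, and the same holds for the type I and antigen lists below. Of the 25, 8 were called lower in that fit. These were Cxcl9, Gbp2, Ubd, Tap1, Psmb8, Irf1, Gbp7 and Cxcl11, with adjusted p from 0.0476 to 0.049. Ubd, the ubiquitin-like protein FAT10, read 1049 and 605 against 209 and 212, −1.84 (adjusted p = 0.133 with all arrays). Ifng itself was near the bottom of the range, with 87.6 and 78.8 against 39.2 and 43 (−0.80, adjusted p = 0.0632).

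Of 28 genes of the type I interferon response, 2 were called lower and 0 higher, and the median was −0.80. Both pre-A20 arrays lay below both pre-βgal arrays in 23, against 29.3% of all genes. Rsad2, the antiviral protein viperin, read 4282 and 1962 in pre-βgal and 405 and 363 in pre-A20, 7.30-fold lower (−2.87, SE 0.56, limma adjusted p = 0.0481). Its other 2 probe sets had −3.11 and −1.76. Oasl1 read 815 and 746 against 226 and 243 (−1.67, adjusted p = 0.0483). Both calls were lost without pre-βgal replicate 1 (adjusted p = 0.135 and 0.132), while 5 of the 28 were called without both post-A20 arrays. Rsad2 holds in its start region the letters GAAA and GAAA with any 2 bases between them, the core of the interferon-stimulated response element. The search for this element and for the E-box below was added after the values were seen. It was found in 11 of the 19 type I genes with a window (57.9%) and in 9 of 18 interferon γ targets (50%), against 3.99% of all genes. The window of Rsad2 (chr12:26456403-26456702, − strand) has the match on the opposite strand, at 120 bases before the start, in capitals.
Rsad2: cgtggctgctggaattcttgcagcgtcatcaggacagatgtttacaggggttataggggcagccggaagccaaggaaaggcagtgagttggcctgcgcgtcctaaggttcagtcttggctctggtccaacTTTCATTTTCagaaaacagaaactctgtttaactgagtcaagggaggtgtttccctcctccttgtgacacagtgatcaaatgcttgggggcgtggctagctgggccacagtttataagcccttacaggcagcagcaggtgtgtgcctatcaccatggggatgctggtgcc
As above, nothing about binding follows from the letters.

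Genes of antigen presentation had a median of −0.94 over 17, with 0 called by limma (10 at an unadjusted p under 0.05). Both pre-A20 arrays lay below both controls in 14, against 29.3% of all genes. The class II gene H2-Ab1 read 1740 and 1344 in pre-βgal and 419 and 472 in pre-A20, −1.75 (SE 0.44, limma adjusted p = 0.0832). Cd74, the invariant chain of class II, had −1.71 (adjusted p = 0.13), and the peptide transporter Tap1 −1.53 (adjusted p = 0.104). Tap1 had 4 probe sets kept, and only 1 of its others differed in the same direction. B2m, the light chain of class I, had 0.19 (adjusted p = 0.564). Without both post-A20 arrays, 5 of these genes were called lower, where 118 of all 17790 genes were. The list median was −0.72 against pre-βgal replicate 2 and −1.31 against replicate 1.

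**Figure D3:**
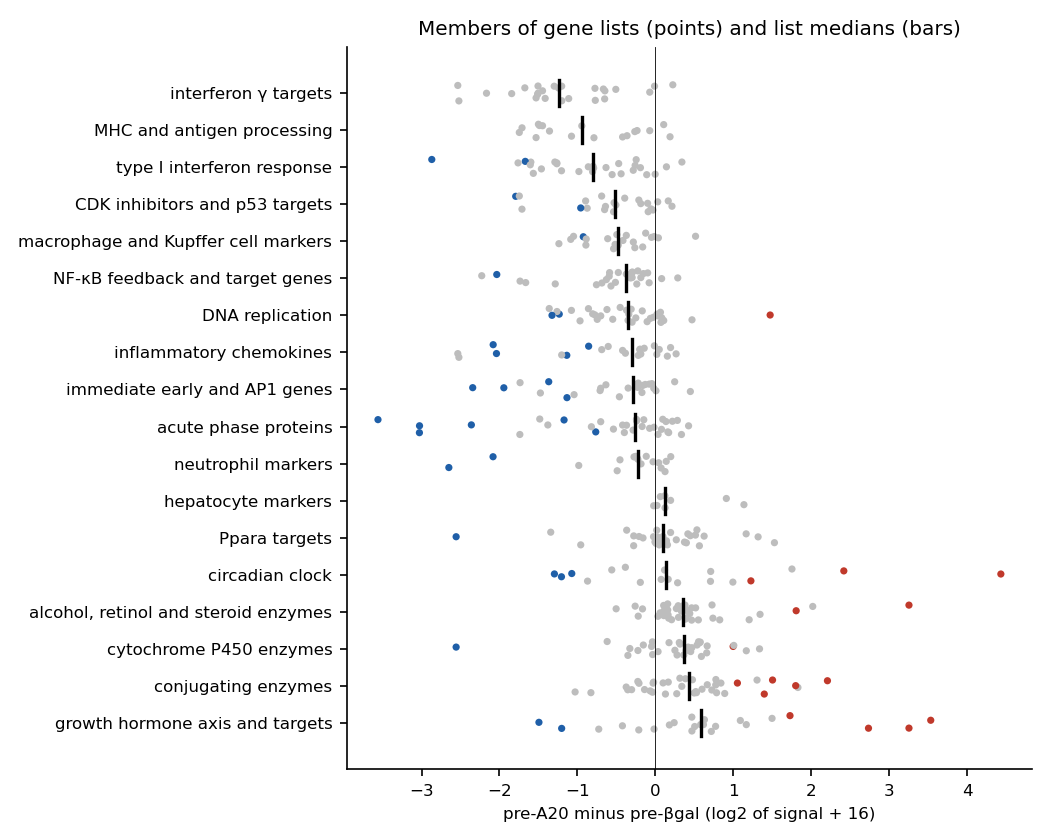
Difference of pre-A20 from pre-βgal (log2 of signal + 16) of every gene tested of 18 lists, 1 point per gene, red if called higher, blue if called lower and grey if not called, with the list median as a bar. The bar lies lowest for the targets of interferon γ, at −1.24, and highest for the growth hormone list, at 0.58.

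Markers of immune cells were lower in part, and in pooled liver RNA fewer cells of a type and less RNA per cell cannot be told apart. Of 17 neutrophil markers, 2 were called lower and the list median was −0.23. These were S100a8 and S100a9, which form calprotectin. S100a9 read 1095 and 699 in pre-βgal and 114 and 140 in pre-A20 (−2.65, SE 0.27, limma adjusted p = 0.0189), and S100a8 976 and 554 against 151 and 173 (−2.08, adjusted p = 0.0232). The next in size was the formyl peptide receptor Fpr2, at −0.98 (adjusted p = 0.0818). The receptor Csf3r had −0.49 and the granule genes Ltf, Camp, Ngp, Elane and Mpo lay between −0.27 and 0.12, with none of these called. The summed signal of the list was 6628 and 5843 in pre-βgal and 4192 and 4151 in pre-A20. S100a9 stayed called without pre-βgal replicate 1, and S100a8 had an adjusted p of 0.0544 there.

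Of 21 markers of macrophages and Kupffer cells, 19 had a negative difference, with a median of −0.48. Both pre-A20 arrays lay below both controls in 15, against 29.3% of all genes. The 1 called, Csf1r, the receptor on which these cells depend, read 2638 and 2540 in pre-βgal and 1497 and 1227 in pre-A20 (−0.93, SE 0.18, limma adjusted p = 0.0481, and 0.124 without pre-βgal replicate 1). Lyz2 had −1.24 (adjusted p = 0.0594), C1qa −0.89 (adjusted p = 0.0622) and Cd5l −1.09 (adjusted p = 0.0801). Among those that define resident Kupffer cells, Clec4f had −0.26, Timd4 0.04 and Vsig4 −0.61, and none of them was called. The summed signal was 19193 and 18067 in pre-βgal and 11087 and 11058 in pre-A20. Of 24 T and NK cell markers, Ccl5 and Eomes were called lower and the median was −0.19. For 14 markers of B cells, 21 of sinusoidal endothelium and 15 of stellate cells the medians were 0.00, 0.01 and 0.06, and limma called 0 of each (5, 6 and 3 at an unadjusted p under 0.05). Over all genes tested, 3887 of 17790 had such a p. The part of immune cells in the lower chemokine, interferon and antigen genes was not tested.

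Early response genes, which rise within minutes of a stimulus, had 4 of 24 members called lower, 0 higher and a median of −0.29. Btg2, an antiproliferative protein, read 1260 and 1128 in pre-βgal and 303 and 293 in pre-A20, 3.85-fold lower (−1.94, SE 0.17, limma adjusted p = 0.0182). Its arrays within each group were close to each other, and its other probe set had −1.68. Egr1, a zinc finger transcription factor, read 1969 and 576 against 193 and 202 (−2.34, SE 0.47, adjusted p = 0.0492). Here the controls were more than 3-fold apart, and without pre-βgal replicate 1 the difference was −1.47 (adjusted p = 0.0478). Atf3, a stress factor, had −1.37 (adjusted p = 0.0316) and Ier5 −1.13 (adjusted p = 0.025), with 0.0613 and 0.0723 without pre-βgal replicate 1. Ier5 had 3 probe sets kept, and only 1 of its others differed in the same direction. Fos had −0.71 (adjusted p = 0.0721), Jun −0.70 (adjusted p = 0.0668) and Myc 0.45 (adjusted p = 0.43).

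Of 22 CDK inhibitors and p53 targets, 2 were called lower, 0 higher, and the median was −0.52. Cdkn1a, the inhibitor p21, which stops cells at the entry into DNA synthesis, read 3560 and 2700 in pre-βgal and 1008 and 775 in pre-A20. It was 3.46-fold lower with A20 (−1.79, SE 0.22, limma adjusted p = 0.0202), and its other probe set had −2.14. The difference was −1.59 when pre-βgal replicate 1 was left out (adjusted p = 0.0544). Polk, a DNA polymerase that bypasses lesions, had −0.96 (adjusted p = 0.0408), but its other probe set had −0.10. Phlda3, a p53 target that restrains AKT, had −1.71 (adjusted p = 0.0523) and Cdkn1c, the inhibitor p57, −1.75 (adjusted p = 0.118).

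Of 32 genes of DNA replication, 2 were called lower and 1 higher, with a median of −0.35. In all, 24 had a negative difference and 16 had an unadjusted p under 0.05. Both pre-A20 arrays lay below both controls in 19 and above them in 3, against 29.3% and 22.1% of all genes. Mcm6, a subunit of the replicative helicase, read 2027 and 2248 in pre-βgal and 863 and 936 in pre-A20 (−1.23, SE 0.20, limma adjusted p = 0.0349), and the ligase Lig1 1433 and 793 against 401 and 431 (−1.33, adjusted p = 0.0499). Mcm10, another gene of the list, read 1150 and 887 against 2531 and 3162 (1.47, adjusted p = 0.0361), but its other 2 probe sets had 0.30 and −0.06. Among the proliferation genes the study names, Cdk2 had −0.35 (adjusted p = 0.234), Rb1, the retinoblastoma protein, −1.08 (adjusted p = 0.0565) and Ccna2 −0.42 (adjusted p = 0.419). Ccna2, cyclin A2, stood at 811 in pre-βgal replicate 1, while the remaining arrays lay between 439 and 452, so its difference came from 1 array. Of 29 mitosis genes 1, Kif23, was called, at −0.76 (adjusted p = 0.0496).

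The clock genes held the largest rise of all genes called, and members of the list went both ways. The circadian clock is driven by a pair of proteins, Arntl with Clock or Npas2, that switch on genes with an E-box, among them the repressors Nr1d1, Nr1d2, Cry1, Cry2 and the Per genes and the output factors Dbp, Tef and Hlf. Nr1d1 and Nr1d2 in turn repress Arntl and Npas2, so that the groups peak at different times of day. Dbp read 113 and 80.9 in pre-βgal and 2788 and 2056 in pre-A20. It was 21.6-fold higher with A20 (4.43, SE 0.39, limma adjusted p = 0.0182, and 0.0386 without pre-βgal replicate 1), and its other probe set had 2.95. Nr1d2 read 266 and 507 against 1912 and 2161 (2.42, adjusted p = 0.0207), and Tef 741 and 666 against 1670 and 1654 (1.22, adjusted p = 0.0242). Their partners of the opposite phase were lower. Npas2 read 267 and 151 in pre-βgal and 69.9 and 75.4 in pre-A20 (−1.30, adjusted p = 0.0474), and Arntl 306 and 376 against 160 and 146 (−1.07, adjusted p = 0.0311), although the other probe set of Arntl had 0.01. Cry2, which the scheme above places with Dbp and Nr1d2 and not with Arntl, was lower too. It read 1139 and 1195 against 590 and 418 (−1.21, adjusted p = 0.0317). Thus 3 of the 18 clock genes tested were called higher and 3 lower, and Nr1d1 (1.75, adjusted p = 0.0973) and Hlf (0.99, adjusted p = 0.0544) were not called. Per1, Per2 and Per3 had 0.28, 0.12 and 0.16, none of them called. These calls except that of Dbp were lost without pre-βgal replicate 1, where the adjusted p of Nr1d2, Tef, Npas2, Arntl and Cry2 was 0.053 to 0.0952.

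The sources used here do not give the time of day at which livers were taken, so transgene and time of sampling cannot be told apart for these genes. The same holds for every other difference between pre-A20 and pre-βgal described here. In the remnant 24 h later the difference in Dbp was 0.09, with 415 and 212 in post-βgal and 221 and 452 in post-A20, and that in Nr1d2 was 0.35. The test of the difference between both times gave an adjusted p of 0.138 for Dbp and 0.212 for Nr1d2. An E-box of the letters CACGTG was found in the windows of 5 of 16 clock genes (31.2%) against 8.09% of all genes. The start region of Tef (chr15:81811164-81811463, + strand) is shown with its E-box, 138 bases before the start, in capitals.
Tef: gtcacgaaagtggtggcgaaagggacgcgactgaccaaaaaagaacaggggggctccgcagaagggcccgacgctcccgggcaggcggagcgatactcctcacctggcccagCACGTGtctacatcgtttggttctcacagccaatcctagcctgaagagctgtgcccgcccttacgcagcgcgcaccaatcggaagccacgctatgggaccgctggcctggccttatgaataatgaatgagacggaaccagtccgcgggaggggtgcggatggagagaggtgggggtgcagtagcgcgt
The others of the 5 were Per1, Cry1, Bhlhe41 and Ciart.

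**Figure D4:**
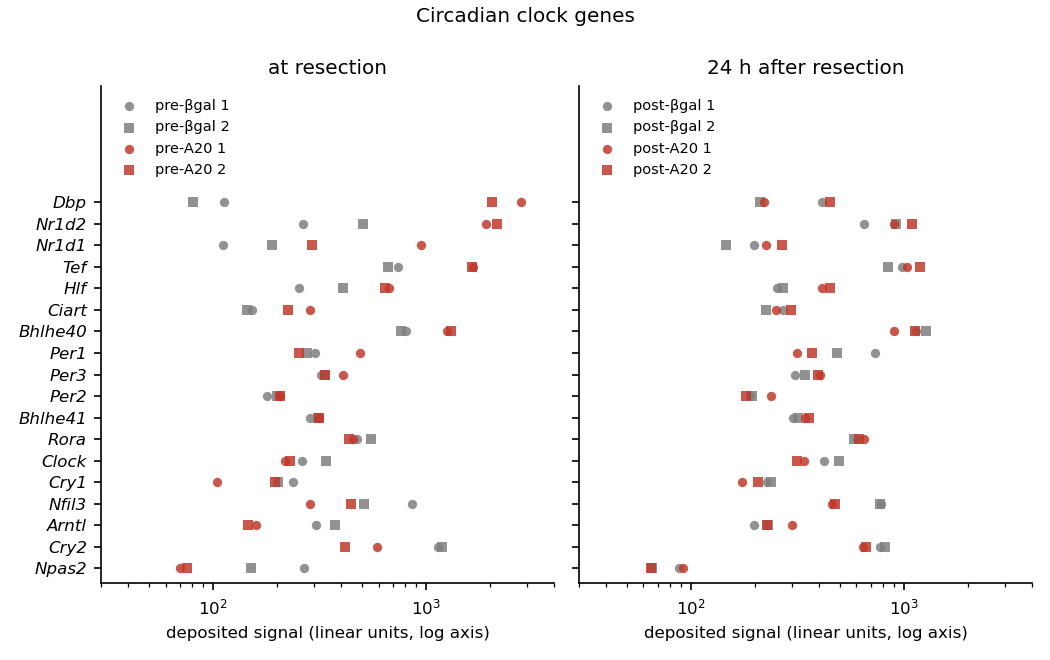
Deposited signal (horizontal log axis) of the 18 clock genes tested in the 4 arrays taken at resection (left) and the 4 taken 24 h after it (right), grey for βgal and red for A20, circles for replicate 1 and squares for replicate 2. In Dbp the red points lie at 2056 and 2788 against 80.9 and 113 at resection, while 24 h later the colours mix between 212 and 452.

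The growth hormone list had the highest median of the lists drawn, 0.58 over 23 genes, with 4 called higher and 2 lower. Both pre-A20 arrays lay above both controls in 16, against 22.1% of all genes. In mice the pulses of growth hormone in males induce a set of liver genes through JAK2 and STAT5. Mup10, a major urinary protein whose gene has close copies that may share its probes, read 114 and 223 in pre-βgal and 1611 and 2536 in pre-A20, 11.6-fold higher (3.53, SE 0.32, limma adjusted p = 0.0182). Hsd3b5, a steroid reductase of male liver, read 492 and 372 against 3455 and 5134 (3.25, adjusted p = 0.0243). Slco1a1, a carrier that takes up organic anions, read 335 and 695 against 3116 and 3499 (2.73, adjusted p = 0.0246). Lifr, the receptor of leukemia inhibitory factor, had 1.73 (adjusted p = 0.0464). Cyp2b9, a cytochrome of female liver, went the other way, from 651 and 564 to 175 and 239 (−1.49, adjusted p = 0.0191), and so did Jak2, from 1298 and 1116 to 565 and 468 (−1.20, adjusted p = 0.0349), although its other probe set had 0.18. Ghr, the receptor, had 0.58 (adjusted p = 0.104), Igf1 0.63 (adjusted p = 0.167) and Socs2, a feedback inhibitor, −0.42 (adjusted p = 0.288). Mup10 stayed called without pre-βgal replicate 1 (adjusted p = 0.0386), while Hsd3b5, Slco1a1, Lifr, Cyp2b9 and Jak2 had an adjusted p of 0.0544 to 0.118 there.

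Enzymes that conjugate drugs and hormones were higher where they were called, 5 of 38 with 0 lower and a median of 0.43. The sulfotransferase Sult2a8 read 879 and 2073 in pre-βgal and 5817 and 6810 in pre-A20 (2.21, SE 0.39, limma adjusted p = 0.0411). Sult1b1 had 1.80 (adjusted p = 0.0307) and Sult5a1, with 240 and 227 against 642 and 639, had 1.40 (adjusted p = 0.0189). Of the glucuronosyltransferases, Ugt2b37 had 1.5 (adjusted p = 0.0271) and Ugt2a3 1.05 (adjusted p = 0.0329). Adh4, an alcohol dehydrogenase that also acts on retinol, read 744 and 669 against 2098 and 2991 (1.81, SE 0.20, adjusted p = 0.0189) and was, with Hsd3b5, 1 of 2 called higher among 38 enzymes of alcohol, retinol and steroid metabolism, with 0 lower and a median of 0.35. Of 31 cytochromes P450 outside the targets of CAR and PXR, Cyp2c23 was called higher (1.0, adjusted p = 0.0456) and Cyp4a14 lower. Among 25 targets of the drug receptors CAR and PXR, Cyp2c37 was higher (1.05, adjusted p = 0.0349) and Cyp2b9 and Gstm3 (−0.99, adjusted p = 0.0299) were lower, with a median of 0.08. Many of these enzymes have close relatives that may share probes. Leaving out pre-βgal replicate 1 gave an adjusted p of 0.0514 to 0.124 for Sult2a8, Sult1b1, Sult5a1, Ugt2b37, Ugt2a3, Adh4, Cyp2c23, Cyp2c37 and Gstm3.

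None of the genes of lipid and energy metabolism that the study names and that are given here was called before resection. Ppara, the nuclear receptor that drives fatty acid oxidation, read 573 and 971 in pre-βgal and 1556 and 2279 in pre-A20, 1.32 (SE 0.32, limma adjusted p = 0.074). Its other 2 probe sets differed in the same direction. Cpt1a, which admits fatty acids to mitochondria, had 1.53 (adjusted p = 0.142), and with 605 in pre-βgal replicate 1 and 1901 in replicate 2 the controls were far apart. The mitochondrial carriers Slc25a13 and Slc25a10 had 1.18 (adjusted p = 0.243) and 0.18 (adjusted p = 0.664), and the leptin receptor Lepr −0.02 (adjusted p = 0.955). Slc25a13 read 461 in pre-βgal replicate 1 and 1688 in replicate 2. Its difference was 2.10 against replicate 1 and 0.26 against replicate 2. By qPCR, another measure than these pooled arrays, the study reported more mRNA of Ppara, Cpt1a, Slc25a10 and Slc25a13 with A20. For Lepr it reported that A20 prevented a rise after resection, not a difference before it. Of other genes the study names, the hepatocyte factor Cebpa had 0.70 (adjusted p = 0.183) and the receptor Tgfbr1 0.40 (adjusted p = 0.187). Of 33 targets of Ppara, 1 was called, lower with A20, where 2.5% of all genes were called in either direction. Cyp4a14, a fatty acid hydroxylase, read 814 and 1221 against 195 and 125, 5.88-fold lower (−2.56, SE 0.35, adjusted p = 0.0243, and 0.0544 without pre-βgal replicate 1). Of the 33, 23 had a positive difference and 10 a negative one, and the list median was 0.10. Both pre-A20 arrays lay above both controls in 11 and below them in 5, against 22.1% and 29.3% of all genes. Pdk4, which turns glucose oxidation down, had −1.34 (adjusted p = 0.0561). Thrsp, which promotes fatty acid synthesis, was called higher (1.24, adjusted p = 0.0473) and so was Msmo1 of cholesterol synthesis (1.67, adjusted p = 0.0474), each as 1 of the 29 and 21 genes of its list, while fatty acid synthase, Fasn, had −1.08 (adjusted p = 0.0616). Pkm, the pyruvate kinase of non-hepatic tissues, fell from 886 and 728 to 345 and 344 (−1.18, adjusted p = 0.0242).

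By limma with all arrays, 0 members were called among 26 genes of the citric acid cycle, 49 subunits of the respiratory chain, 38 genes of amino acid catabolism, 12 of the urea cycle and glutamine and 32 of ribosome biogenesis, while 5, 2, 7, 3 and 2 had an unadjusted p under 0.05. Over all genes tested, 3887 of 17790 had such a p. The medians of these lists were 0.14, 0.08, 0.23, 0.20 and −0.14. In the ribosome biogenesis genes the median was −0.30 against pre-βgal replicate 1 and 0.02 against replicate 2, and the controls differed by 0.40 from each other. Matrix genes had 2 of 29 called lower, Col4a1, a collagen of basement membranes (−1.51, adjusted p = 0.0431), and the metalloproteinase Mmp14 (−0.79, adjusted p = 0.0415).

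The largest difference of all belonged to Prm1, the protamine that packs DNA in sperm. Its signal was 3462 and 1157 in pre-βgal and 23.6 and 17.9 in pre-A20 (−5.78, SE 0.43, limma adjusted p = 0.0182), and after resection 1060 and 1372 in post-βgal against 21.6 and 17.5 in post-A20. Both A20 signals were under 40, so the size depends on the offset, from −6.54 with an offset of 1 to −5.27 with 32. Another probe set had −6.10 and the third 0.21. Of the 8 sperm cell markers Akap4 (−1.46, adjusted p = 0.0243) and Tnp1 (−1.0, adjusted p = 0.0455) were also called lower through 1 probe set each, and their other probe sets lay between −0.23 and 0.02. The source of the Prm1 signal in βgal livers was not tested.

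Probe sets other than the one that represents a gene gave a further look at the calls. The 444 genes had 399 other probe sets kept, of which 277 differed in the same direction, where over all genes 8996 of 15710 did. Of the 220 called genes with more than 1 probe set, 126 had all others on the same side.

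The difference between A20 and βgal livers was smaller 24 h after resection for most of the called genes. In the remnant, 104 of the 127 higher and 237 of the 317 lower genes kept their direction. The medians were 1.02 before and 0.33 after resection for the higher genes, and −0.90 and −0.15 for the lower ones. These genes were chosen for their difference before resection, which by itself makes the later one appear smaller. At the later time 59 genes (0.332%) were called, and 11 were called at both, 10 of them in the same direction. Those described above were S100a8, S100a9, Adh4, Fcor and Prm1. S100a9 had −2.65 before and −2.51 after, and Adh4 1.81 and 2.39. The 1 gene called in opposite directions was Ppp1r3g, a subunit that directs a phosphatase to glycogen, named after its values were seen. It read 73 and 57.7 in pre-βgal and 119 and 129 in pre-A20 (0.79, adjusted p = 0.0321), and 129 and 149 in post-βgal and 46 and 54.6 in post-A20 (−1.23, adjusted p = 0.017), with an adjusted p of 0.0646 for the difference between both times. By that interaction test of limma 0 genes were called, with 2788 at an unadjusted p under 0.05 and 0.0646 as the smallest adjusted p. The sources used here do not say whether pools of the same number before and after resection came from the same mice. With a replicate block within each transgene, chosen for this test after the values were seen, 24 genes were called, and with 1 block over all arrays 0 were. Neither Saa3 (−3.56 before, −1.20 after) nor Lcn2 (−3.03 and −0.10) passed it, at an adjusted p of 0.212 for both.

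**Figure D5:**
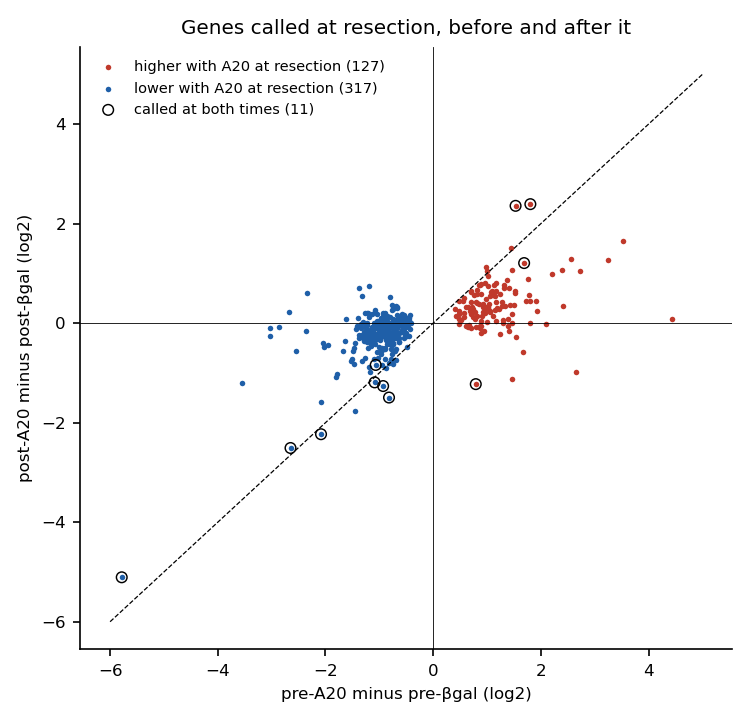
Difference of A20 from βgal livers (log2 of signal + 16) before resection (horizontal axis) and 24 h after it (vertical axis) of the 444 genes called before resection, red for the 127 higher and blue for the 317 lower, with rings around the 11 called at both times and the line of equal differences dashed. Most points lie nearer to 0 on the vertical axis, and Dbp, at 4.43 and 0.09, lies farthest to the right.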

How the data were processed

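Signals of 45101 probe sets on Affymetrix mouse arrays were used as deposited. The deposited table holds normalized intensities on a linear scale that the authors made before deposition. Of the software, dChip (invariant set) appears in the authors' methods and MAS5 in the sample records, and it is unknown which of them gave these values. Array medians were 153 to 166. Symbols came from the array annotation (34945 probe sets with 1 symbol, 932 with several, 9160 with none listed, the last 2 kinds and 64 controls left out of the gene tests). After adding 16, log2 was taken, keeping the 42703 probe sets whose mean signal reached 40 in any group. Each of 17790 genes was read through its probe set of highest mean. All 8 arrays were fitted with 1 mean per group in limma 3.58.1 (R 4.3.3) with a variance trend (residual degrees of freedom 4, prior 3.73). Tests were 2-sided and p was adjusted by Benjamini-Hochberg over all genes, with calls under 0.05. The treatment text of the post-A20 records repeats the βgal wording, and titles were followed. The comparison, the 51 gene lists (36 pathways, 15 cell types) and their members were chosen with earlier results of these data known. Genes were named by rule: the 12 largest rises and falls called without overlap, calls held without pre-βgal replicate 1, genes the study names and, per list, the 4 members of smallest p, unnamed loci left out, and some of these are not described. Other list members were named after their values were seen. Alternatives were other scalings, filters, offsets, variance models, probe set choices, replicate blocks, an RNA integrity covariate, bounds of the criterion and leaving out arrays.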

Additional observations from a re-analysis of the deposited data

How the results depend on the processing

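Since the arrays of both groups did not overlap for the 444 genes, leaving out arrays could not turn their direction. Read through the probe set of highest variance, 439 of 444 kept it, and 933 genes were called. The count of 444 was 368 and 386 with quantile normalization and median centring (133 higher and 235 lower, 139 and 247, against 127 and 317), and it moved by more than 1.5 times in several fits. It was 1 with only the 4 arrays compared, 1094 with the RNA integrity covariate and 1915 with a replicate block within transgene, which by the interval criterion gave 925 and by its construction leaves the spread between pools out of the error. A replicate block over all arrays gave 527 and 667. Arrays of the same number deviated together in βgal livers before and after resection (correlation of 0.675) but not in A20 livers (−0.0429), and between transgenes the correlations were −0.186 to 0.213, so the numbers were not taken as pairs over all groups. The crossed pairing, chosen after seeing the data, called 425 genes. Leaving out 1 array gave 5 to 1686 calls and 292 to 1540 genes by the interval criterion. A bound of 1.2 or 2 gave 2154 and 99. Alternatives also chosen after seeing the data were variances moderated over the genes' own probe sets only, with 823 calls, and fits without both post-A20 arrays, with 157, or without both βgal replicate 1 arrays, with 52. The causes were not tested. Of the named genes, Lepr turned to 0.027 with quantile normalization, 0.017 with median centring, 0.035 with the covariate and 0.057 without both βgal replicate 1 arrays, and leaving out 1 array gave −0.087 to 0.057. Ccna2 turned to 0.0090 without both βgal replicate 1 arrays, and had −0.84 to 0.0090 with 1 array left out, and Slc25a10 had −0.11 to 0.48.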
